A study of Mus musculus with 21 samples.

Results

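Line KOA and line KOB, both labelled EPHA2-KO, were derived from the same mouse pancreatic tumour clone, 6694c2, and were compared with each other to find what separates knockout lines of 1 clone. Each line had 4 libraries, so 8 of the 21 libraries of the series entered the comparison, and they were taken by the line letter in the column names of the deposited TPM table. The whole series holds RNA-seq of 2 mouse pancreatic tumour cell clones, 6694c2 and 6419c5, each unedited and as lines labelled EPHA2-KO. EPHA2 is a receptor tyrosine kinase whose ligands, the ephrins, sit on neighbouring cells. Cells of every line had been implanted under the skin of C57BL/6 mice, and the tumours were taken after 3 weeks and sorted for tumour cells, with no treatment. The parental line of 6694c2, called WT here because its labels name the clone alone, had 4 libraries, and its levels are given beside those of the knockout lines with no test. How EPHA2 was edited, whether a line is 1 cell clone and whether each library is from its own mouse are not given in the labels, so a p value measures the spread between these libraries. The letters of the table could not be matched to the numbers that the labels give the knockout lines.

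Pancreatic ductal tumours hold cells along a range from a classical epithelial state to a mesenchymal one. The classical state keeps E-cadherin junctions, GATA6 and genes of the gastric surface lining such as trefoil factors, gastrokines and the mucin MUC5AC. The mesenchymal state, which epithelial cells can enter through epithelial-mesenchymal transition (EMT), brings transcription factors of the SNAI, ZEB, TWIST and PRRX families, vimentin, fibronectin and collagens. Hypoxia stabilises the transcription factor HIF-1, which binds DNA at a core of the letters ACGTG and raises glucose transport, glycolysis and blood vessel growth factors.

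Values were log2(TPM + 1), and a difference is KOA less KOB on that scale, which understates the change of genes with low TPM. Genes were called where limma, fitted to the 8 libraries, gave an adjusted p under 0.05. The libraries of a line were more alike than those of different lines, with Pearson's r across genes of 0.962 to 0.988 within KOA, 0.984 to 0.99 within KOB and 0.904 to 0.952 between them. Within KOA, libraries 3 and 4 lay apart from libraries 1 and 2: on the first principal component, which held 68.5% of the variance, they stood at −58.1 and −58.8 against −26.3 and −20.3, with KOB at 38.7 to 42.1. In KOB library 4, the entry Mir6236 alone took 14.5% of the TPM, against 2.27% to 4.78% in the other 7. Depth is unknown for TPM. A lower level in such bulk samples may come from fewer cells of a type or from less RNA per cell, and these cannot be told apart.

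Transcripts of the targeted gene were counted in both lines, and whether they include the edited part could not be checked. Epha2 (chromosome 4, 141301221 to 141329384, GRCm38) measured 108, 92.2, 129.7 and 129.7 TPM in the KOA libraries and 90.9, 113, 99 and 88 in the KOB libraries, against 244, 239.9, 243 and 252 in WT. The lines overlapped, and every knockout library lay below every WT library. The difference between the lines was 0.22 ± 0.13 (SE, adjusted p 0.185, exact two-sided permutation p 0.2, with 0.0286 the smallest that 4 against 4 allows). It passed the threshold without KOA library 2 (0.32, adjusted p 0.0374) and without KOA libraries 1 and 2 (0.41, adjusted p 0.0137).

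KOA and KOB differed in 5715 of 13245 genes tested, 43.1% of them, with 2785 higher in KOA (21%) and 2930 higher in KOB (22.1%). A difference of at least 1 was called for 1485 genes (11.2%), 904 higher in KOA and 581 higher in KOB, and a difference of at least 2 for 212 and 104. Without KOA libraries 1 and 2, 6961 genes were called, and without KOA libraries 3 and 4, 4324. With TPM rescaled without Mir6236, 6331 genes were called, 2827 higher in KOA and 3504 higher in KOB, and with median-of-ratios scaling 6608, 3314 and 3294. The median difference over all genes tested was −0.01. The counts of list members below are to be read against these shares. Some members passed the filter (1 TPM in 3 or more of the 8 libraries) through KOA alone, which shaped the counts and medians of their lists. Among them were Snai1, Tgfb2, Inhbb, Mmp10, Adam12 and Ccr7, which stayed under 1 TPM in every KOB library.

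**Figure D1:**
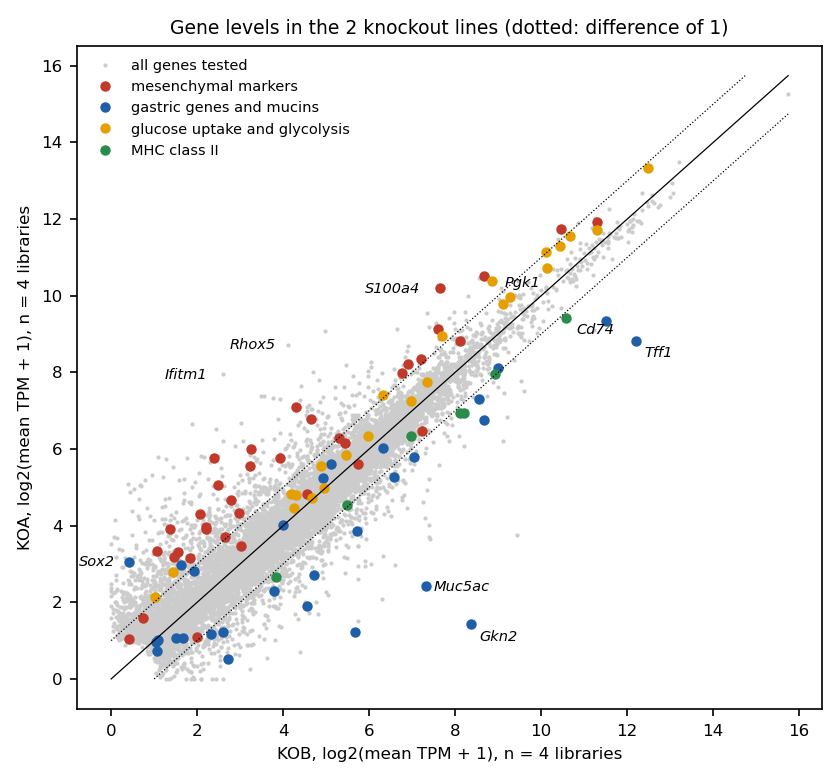
Mean level of every tested gene in KOB (x axis) and KOA (y axis), as log2 of the mean TPM + 1 over 4 libraries each, with 4 gene lists in colour. Mesenchymal and glycolysis genes lie mostly above the diagonal, while gastric and MHC class II genes lie mostly below it, with Gkn2 and Muc5ac far below.

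Genes of the gastric surface epithelium stood high in KOB, and Gkn2 had the largest difference of all called genes. Of 29 tested genes of the gastric foveolar and mucin list, 18 were called higher in KOB and 2 higher in KOA, with a median of −1.26 (21 higher in KOB without KOA libraries 1 and 2, and 16 without 3 and 4). Gkn2, which encodes gastrokine 2, a secreted protein of gastric surface cells, measured 4.14, 1.58, 0.509 and 0.535 TPM in KOA and 121, 488, 369 and 332 in KOB, a difference of −6.96 ± 0.49 (adjusted p 1.36e-05). It was at 1.2 to 9.08 TPM in WT, so every KOB library lay far above the highest WT library. Its neighbour Gkn1, gastrokine 1, measured 4.53, 0.508, 0.0914 and 0.191 TPM in KOA and 16.7, 81, 52.5 and 48.1 in KOB (−4.61 ± 0.58, adjusted p 0.000283). The lines did not overlap at either gene, and KOA library 1 was the highest of its line at both.

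Muc5ac, the gel-forming mucin of the stomach surface, measured 4.98, 0.903, 5.54 and 5.86 TPM in KOA and 94.7, 256, 148 and 133 in KOB (−4.97 ± 0.43, adjusted p 3.98e-05), against 3.55 to 5.36 in WT. Tff1, a trefoil factor secreted with that mucin, was abundant in both lines, with 815, 483, 233 and 279 TPM in KOA and 3340, 6302, 4853 and 4367 in KOB (−3.52 ± 0.36, adjusted p 0.000102). Its WT libraries, at 522 to 634 TPM, lay among those of KOA. Tff2, the trefoil factor of gastric neck cells, measured 996, 875, 363 and 378 TPM in KOA and 2590, 3713, 3020 and 2325 in KOB (−2.28 ± 0.33, adjusted p 0.00062), and WT was lowest at 135 to 258. In all of these genes the 4 KOB libraries lay above the 4 KOA libraries. Smaller differences were called for Cldn18, a gastric tight junction protein (−1.36), Vsig1, a gastric junctional adhesion protein (−1.26), and Tspan8, a tetraspanin of gut epithelium (−0.90). Sox2, a transcription factor of the embryonic foregut and stomach, went the other way, with 7.6, 7.24, 7.56 and 6.68 TPM in KOA, 0.243, 0.379, 0.184 and 0.509 in KOB and 6.56 to 9.16 in WT (2.64 ± 0.13, adjusted p 3.4e-06). The other member called higher in KOA was Lyz1, a lysozyme gene (1.25 ± 0.41, adjusted p 0.0327), a call lost without any 1 of KOA libraries 3 and 4 and KOB libraries 1, 3 and 4 (adjusted p 0.0619 to 0.0886), whose reads may be shared with the near copy Lyz2, a macrophage gene.

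GATA factors, described further on, bind the letters GATAA, and promoters of gastric genes that were higher in KOB are shown with these letters marked. The sequences are RefSeq's (GRCm38.p6), from 250 bases before to 50 bases after the gene start, written 5′ to 3′ on the gene's strand, with GATAA or its reverse TTATC in capitals. They belong to the 3 called members of the list with the smallest p among those whose promoter held a match, at chr6:87373115-87373414 on the plus strand, chr6:87350866-87351165 on the minus strand and chrX:140907358-140907657 on the plus strand.
Gkn2: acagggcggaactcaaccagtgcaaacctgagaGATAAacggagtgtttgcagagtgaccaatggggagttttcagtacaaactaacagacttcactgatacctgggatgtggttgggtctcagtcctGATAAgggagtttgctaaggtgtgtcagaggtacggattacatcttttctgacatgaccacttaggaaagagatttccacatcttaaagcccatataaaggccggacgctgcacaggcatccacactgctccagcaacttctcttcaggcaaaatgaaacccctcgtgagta
Gkn1: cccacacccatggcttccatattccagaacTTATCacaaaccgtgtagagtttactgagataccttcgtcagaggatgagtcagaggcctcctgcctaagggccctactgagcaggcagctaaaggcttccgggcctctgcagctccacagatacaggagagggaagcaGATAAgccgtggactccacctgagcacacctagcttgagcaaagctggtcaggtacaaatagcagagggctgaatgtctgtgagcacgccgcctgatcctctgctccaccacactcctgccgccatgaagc
Vsig1: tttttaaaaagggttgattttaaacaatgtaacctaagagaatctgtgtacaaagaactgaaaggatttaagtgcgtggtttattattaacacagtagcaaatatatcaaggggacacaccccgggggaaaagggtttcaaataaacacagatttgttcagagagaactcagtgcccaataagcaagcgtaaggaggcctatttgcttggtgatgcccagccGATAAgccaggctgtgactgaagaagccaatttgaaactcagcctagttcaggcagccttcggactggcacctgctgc
Gkn2 and Gkn1 held 2 matches each and Vsig1 held 1. A match was found in 4 of the 10 promoters available for the members called higher in KOB and in 3 of 9 for the other tested members, against 1609 of 10086 tested genes with a promoter sequence (16.0%). A match describes the letters only. Gkn2 (chromosome 6, 87373365 to 87379494) and Gkn1 (chromosome 6, 87345653 to 87350915) are neighbours that point away from each other.

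The 20 largest differences in favour of KOB also held genes of none of the lists, of which 7 are given here. Cyp2c65, a cytochrome P450, measured 3.18, 3.23, 0.522 and 0.436 TPM in KOA and 43.1, 61, 53.3 and 52.1 in KOB (−4.41 ± 0.36, adjusted p 3.22e-05). Alpi, intestinal alkaline phosphatase, measured 6.79, 4.06, 1.01 and 1.15 and 39.1, 94.9, 82.5 and 92 TPM (−4.36 ± 0.46, adjusted p 0.000109). Neither overlapped between the lines, and in both KOA libraries 3 and 4 were the lowest. The same order held for Sult1c2, a sulfotransferase, at 24.1, 26, 4.52 and 6.55 TPM in KOA and 163, 204, 161 and 140.1 in KOB (−3.68, adjusted p 0.00034). Sftpd, which encodes surfactant protein D, measured 15.7, 9.91, 0.659 and 0.603 TPM in KOA, 56.7, 67.1, 54.6 and 32.1 in KOB and 0.283 to 1.31 in WT (−3.47, adjusted p 0.00451). Slurp1, a secreted epithelial protein (−3.83), Adh7, an alcohol dehydrogenase of stomach lining (−3.32), and Gsta1, a glutathione transferase (−3.89), were among them as well. Gsta1 belongs to a family of near copies, so its reads may be shared with them.

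Transcription factors of the pancreas and foregut differed by less. Of 17 tested, 9 were called higher in KOB and 2 higher in KOA, with a median of −0.30. Gata4, an endoderm factor of pancreas and stomach, measured 36, 38.6, 24 and 26.4 TPM in KOA and 71.2, 82.6, 74.7 and 60.1 in KOB (−1.20 ± 0.16, adjusted p 0.00039), and Gata6, its relative that marks the classical state, measured 55.4, 63.7, 51.5 and 54.9 and 78.7, 85.1, 86 and 77.3 (−0.53 ± 0.08, adjusted p 0.000855). At both genes WT lay within or beside the KOA range, at 30.2 to 33.5 TPM for Gata4 and 55.6 to 65.1 for Gata6. Klf4, a factor of differentiated epithelium (−1.08 ± 0.09, adjusted p 3.13e-05), Hhex, a factor of early liver and pancreas (−0.77 ± 0.13, adjusted p 0.00134), and Hnf4g, a nuclear receptor of gut epithelium (−1.28 ± 0.14, adjusted p 0.000118), were higher in KOB. Hnf4g measured 3.44 TPM in KOB and under 2 TPM in every KOA library. Sox9, a factor of pancreatic duct and progenitor cells, was higher in KOA, at 182, 182, 286 and 304 TPM against 112, 119.6, 117 and 99.6 (1.05 ± 0.17, adjusted p 0.00129). Pdx1, the pancreatic master factor, was called higher in KOB by a small margin (−0.27 ± 0.08, adjusted p 0.0244), a call lost without any 1 of KOA libraries 1 and 4 and KOB libraries 2 and 3 (adjusted p 0.0549 to 0.0762). Hnf4a, a hepatocyte nuclear factor of endoderm, gave −0.09 ± 0.09 (adjusted p 0.436).

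Junction genes of epithelial cells were higher in KOB. Of 36 tested genes of epithelial adhesion and keratins, 19 were called higher in KOB and 5 higher in KOA, with a median of −0.85. Cdh1, which encodes E-cadherin, measured 279.9, 224, 176 and 177 TPM in KOA and 486, 521, 475 and 413 in KOB (−1.16 ± 0.15, adjusted p 0.0003), with WT at 222 to 259.5. Dsp, the desmosome protein desmoplakin, measured 35.2, 32.1, 14.9 and 14.8 TPM in KOA and 101, 124, 110.1 and 99.3 in KOB (−2.22 ± 0.27, adjusted p 0.00025). At both genes every KOB library was above every KOA library, and KOA libraries 3 and 4 were the lowest. Cdh3, P-cadherin (−1.62), Cgn, the tight junction protein cingulin (−1.41), and Dsg2, a desmosomal cadherin (−1.24), differed in the same direction.

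Not every epithelial gene followed. Epcam, an epithelial adhesion molecule, measured 53, 10.8, 1.07 and 0.865 TPM in KOA and 25.9, 24.3, 22.7 and 14.8 in KOB, so KOA held both the highest and the lowest libraries (−1.67 ± 0.93, adjusted p 0.177). Without KOA library 1 it was called (−2.65, adjusted p 0.00687), and without KOA libraries 3 and 4 the sign turned (0.17, adjusted p 0.833). Krt19, a keratin of ducts, reached 1418 to 2240 TPM in KOA and 2168 to 2470 in KOB (−0.35 ± 0.15, adjusted p 0.0928), and passed without KOA library 1 (adjusted p 0.0342) or 2 (0.039). Krt23, another keratin, was higher in KOA (1.61 ± 0.12, adjusted p 1.79e-05).

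Mesenchymal genes were high in KOA, with a list score near that of WT, and low in KOB. Of 36 tested mesenchymal markers, 32 were called higher in KOA and 2 higher in KOB, with a median of 1.41, and 10 of 11 tested EMT transcription factors were called higher in KOA, with a median of 0.89. Twist2, a factor of the TWIST family, measured 11.5, 18, 12.3 and 11.3 TPM in KOA, 0.793, 1.21, 1.52 and 1.31 in KOB and 4.51 to 10.1 in WT (2.68 ± 0.17, adjusted p 9.45e-06). Prrx2, a homeobox factor of limb and facial mesenchyme, measured 90.5, 100.2, 172 and 182 TPM in KOA and 31.5, 18.8, 20.4 and 19.1 in KOB (2.52 ± 0.25, adjusted p 9.2e-05). Both lines were well apart at these factors. Snai1 (2.07 ± 0.36, adjusted p 0.00161), Zeb2 (1.43 ± 0.27, adjusted p 0.00252), Zeb1 (0.86 ± 0.19, adjusted p 0.00487) and Snai2 (0.63 ± 0.14, adjusted p 0.00696), which all repress E-cadherin, were called higher in KOA as well. Snai1 ran from 2.27 to 10.7 TPM in KOA and 0.311 to 0.908 in KOB, and Zeb1 from 12.2 to 23.1 and 8.42 to 10.1. The Snai2 call was lost without KOA libraries 3 and 4 (adjusted p 0.0533). Sox4 was the most abundant of the list, at 855, 923, 1020 and 1064 TPM in KOA and 529, 489.9, 537 and 519.9 in KOB (0.89 ± 0.08, adjusted p 5.26e-05). Twist1 was the member that was higher in KOB (−0.80 ± 0.20, adjusted p 0.0104), with 4.33 to 6.61 TPM in WT, above both lines.

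S100a4, a calcium-binding protein of motile cells, measured 1142, 1142, 1115 and 1268 TPM in KOA and 266, 142, 189 and 202 in KOB (2.58 ± 0.16, adjusted p 7.86e-06), against 1340 to 1519 in WT. Fn1, fibronectin, measured 1055, 969, 1850 and 1943 TPM in KOA and 426, 418, 425 and 346 in KOB (1.78 ± 0.22, adjusted p 0.000282). Vim, vimentin, was high in both lines, at 3814, 3981, 3729 and 3887 TPM in KOA and 2601, 2472, 2584 and 2440 in KOB (0.61 ± 0.06, adjusted p 9.6e-05). None of these genes overlapped between the lines. Loxl1 and Loxl2, collagen cross-linking enzymes (2.19 and 0.99), and Lgals1, galectin 1 (1.29), were higher in KOA as well. The 2 members higher in KOB were Cnn1, calponin (−0.89), and Tpm2, a tropomyosin (−0.78).

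Collagen and pericyte genes, which stromal cells and mesenchymal tumour cells both express, moved with this group. Of 21 tested genes of the fibroblast and pericyte list, 16 were called higher in KOA and 1 higher in KOB, with a median of 1.66, and the 25 listed genes added up to 628.3 to 1524 TPM in KOA, 243.4 to 315.9 in KOB and 651.0 to 780.0 in WT. Col1a1, collagen I, measured 331, 107, 315 and 418 TPM in KOA and 55, 38.6, 52.5 and 27.6 in KOB (2.61 ± 0.40, adjusted p 0.000748). Col5a1, collagen V, measured 39.9, 25, 73.4 and 78.3 and 3.84, 3.62, 5.3 and 3.46 TPM (3.32 ± 0.33, adjusted p 7.87e-05). Rgs5, a pericyte marker, measured 39.2, 35.8, 70.8 and 65.7 TPM in KOA and 1.33, 1.31, 1.57 and 1.52 in KOB, with 6.51 to 8.7 in WT (4.41 ± 0.21, adjusted p 3.64e-06). Cspg4, also a pericyte marker, was the member higher in KOB (−1.27 ± 0.10, adjusted p 3.13e-05). The fibroblast markers Dcn (1.01, adjusted p 0.0848) and Lum (0.36, adjusted p 0.141) were not called, though both were without KOA library 2 (adjusted p 0.00164 and 0.0323), and Fap, Des, Ogn and Dpep1 stayed under 1 TPM in all 8 libraries. The part of stromal cells in the difference was not tested.

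**Figure D2:**
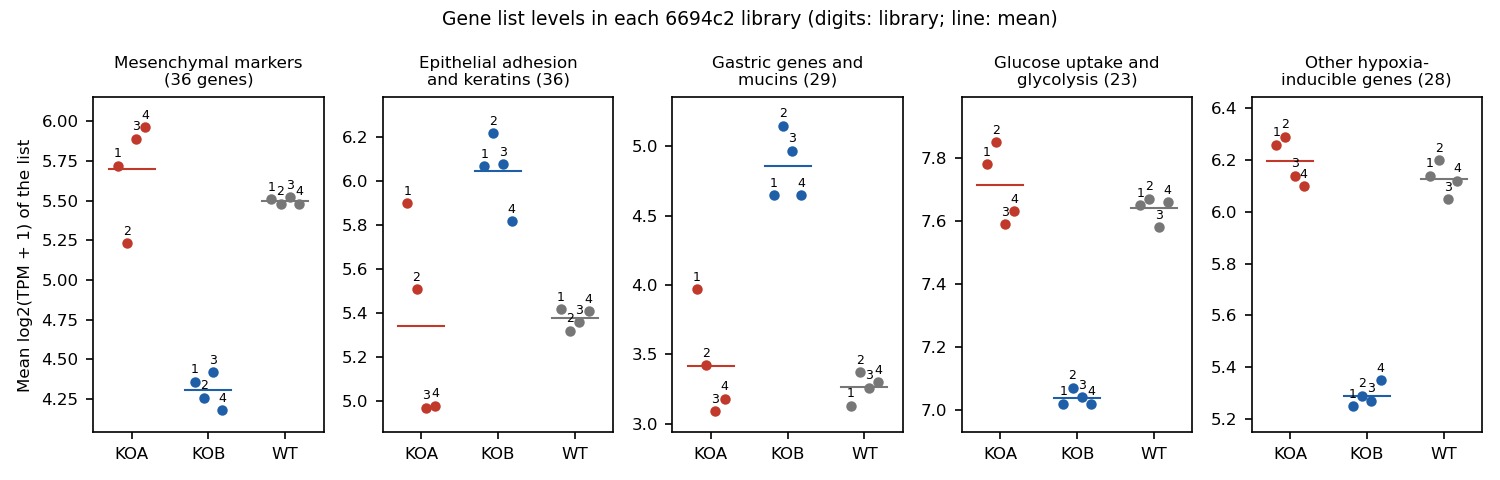
Mean log2(TPM + 1) over the tested members of 5 gene lists in each library of KOA, KOB and WT (points, numbered by library, with the line mean as a bar). Mesenchymal, glycolysis and hypoxia scores of KOA lie beside WT and above KOB, gastric scores of KOB (4.65 to 5.15) lie above KOA (3.09 to 3.97) and WT (3.13 to 3.37), and epithelial scores of KOA libraries 1 and 2 lie above those of libraries 3 and 4.

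The list scores show where the libraries of KOA part. The mesenchymal score ran from 5.23 to 5.96 in KOA, 4.18 to 4.42 in KOB and 5.48 to 5.52 in WT. The epithelial score overlapped between the lines, at 4.97 to 5.90 in KOA and 5.82 to 6.22 in KOB, and KOA library 1 lay within the KOB range. With any 1 library left out, the mesenchymal count was 29 to 32 and the epithelial count 14 to 25, and without KOA libraries 3 and 4 they were 28 and 13.

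Genes of TGF-beta signalling, a known inducer of EMT, were higher in KOA. Of 25 tested ligands, receptors, SMADs and binding proteins, 20 were called higher in KOA and 2 higher in KOB, with a median of 0.60. Tgfb1, the ligand, measured 259, 244, 343 and 378 TPM in KOA, 65.7, 64, 67.3 and 63 in KOB and 194 to 226 in WT (2.19 ± 0.13, adjusted p 7.12e-06), with every KOA library above every KOB library. Inhba, the activin A subunit and also one of the mesenchymal markers, measured 44, 39.2, 90.03 and 76.5 TPM in KOA and 9.44, 5.39, 6.78 and 12.2 in KOB (2.72 ± 0.30, adjusted p 0.00015). Ltbp1 and Ltbp3, which hold latent TGF-beta in the matrix, differed by 1.15 and 0.99. Those higher in KOB were Tgfb3, a second ligand (−0.62 ± 0.19, adjusted p 0.0245, 0.0611 to 0.0698 without any 1 of KOA library 1 and KOB libraries 1, 2 and 3), and Smad6, an inhibitory SMAD (−0.55 ± 0.13, adjusted p 0.00743). Grem1, a secreted antagonist of the related BMP ligands, showed a larger difference than any of them, at 25.1, 19.95, 47.5 and 50.7 TPM in KOA, 0.727, 0.498, 0.803 and 0.867 in KOB and 68.4 to 78.5 in WT (4.32 ± 0.28, adjusted p 9.57e-06).

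Transcripts that follow ERK kinase activity were also higher in KOA, 13 of 21 tested and none higher in KOB, with a median of 0.98. Dusp4 and Dusp5, phosphatases that ERK signalling induces and that act back on it, measured 217, 219, 303 and 301 and 207, 170.3, 372 and 373 TPM in KOA. They measured 61.4, 62, 61.3 and 63.4 and 58.9, 77.6, 55.1 and 66.9 TPM in KOB, differences of 2.03 ± 0.12 (adjusted p 6.65e-06) and 2.03 ± 0.25 (adjusted p 0.000267). The AP-1 subunit Fosl1 (1.71) and the ETS factor Etv4 (1.68) differed in the same direction. Among the EGF receptor family and its ligands, 8 of 11 tested were higher in KOA and 3 higher in KOB. Areg, amphiregulin, measured 56.6, 45.1, 82.3 and 79.1 TPM in KOA and 14.3, 19.3, 17.8 and 19.4 in KOB (1.80 ± 0.19, adjusted p 0.000114), and Nrg1, neuregulin 1, measured 3.3, 2.29, 8.14 and 7.8 and 0.749, 0.537, 0.599 and 0.343 (1.91 ± 0.32, adjusted p 0.00136). Erbb3, a receptor for neuregulins, went the other way, at 32.7, 25.6, 11.1 and 11.8 TPM in KOA and 50.5, 61.9, 54.9 and 51.4 in KOB (−1.52 ± 0.31, adjusted p 0.00353).

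**Figure D3:**
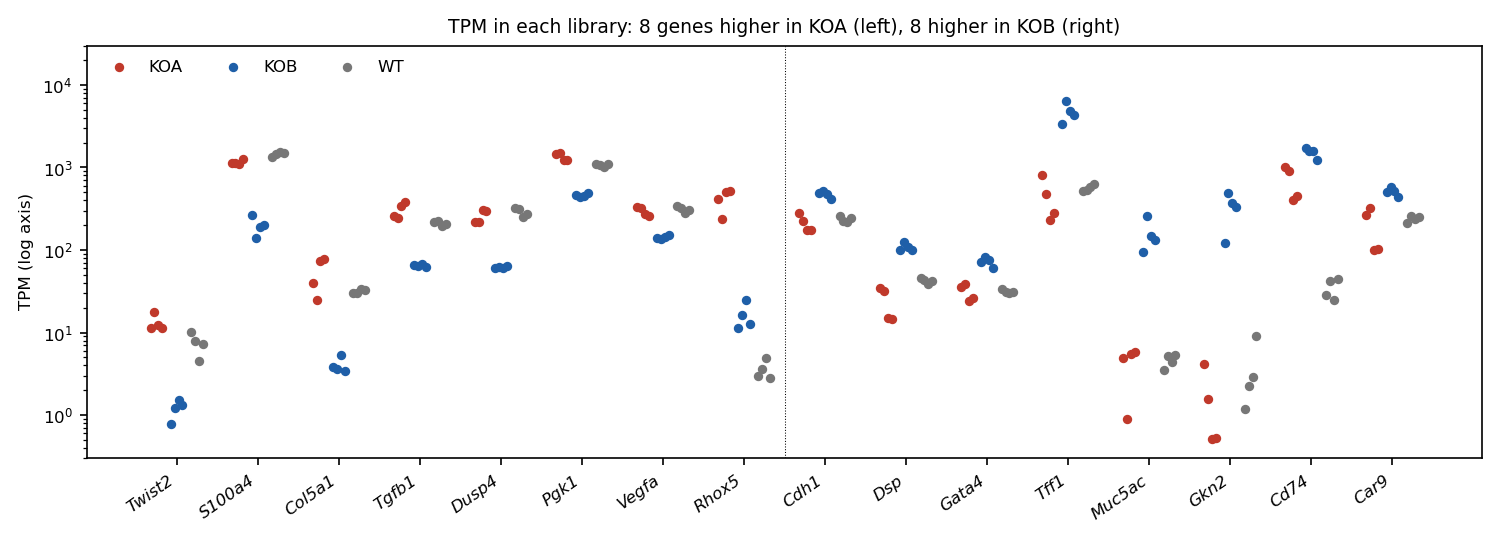
TPM on a log axis in each of the 4 libraries of KOA, KOB and WT for 8 genes that were higher in KOA and 8 that were higher in KOB. WT lies beside KOA for S100a4, Tgfb1, Dusp4, Pgk1, Vegfa, Cdh1 and Gata4, and below both lines for Cd74.

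Glucose metabolism and hypoxia genes were also higher in KOA. Of 23 tested genes of glucose uptake and glycolysis, 19 were called higher in KOA and none higher in KOB, with a median of 0.63. Of 28 other hypoxia-inducible genes, 19 were called higher in KOA and 2 higher in KOB, with a median of 0.82. The glycolysis score ran from 7.59 to 7.85 in KOA, 7.02 to 7.07 in KOB and 7.58 to 7.67 in WT, and the hypoxia score from 6.10 to 6.29, 5.25 to 5.35 and 6.05 to 6.20, so neither overlapped between the knockout lines. Without KOA libraries 1 and 2, 18 glycolysis and 19 hypoxia genes were higher in KOA, and without libraries 3 and 4, 21 and 19.

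Among the enzymes, Pgk1, phosphoglycerate kinase, measured 1438, 1490, 1247 and 1215 TPM in KOA and 467, 442, 452 and 492 in KOB (1.53 ± 0.08, adjusted p 4.2e-06). Ldha, lactate dehydrogenase A, measured 2473, 2478, 1966 and 2035 and 1102, 1160, 1141 and 1040 TPM (1.0 ± 0.09, adjusted p 6.29e-05). Slc2a1, the glucose transporter GLUT1, measured 588, 571, 397 and 423 and 194, 207, 202 and 221 TPM (1.24 ± 0.13, adjusted p 0.000117). The lines stood apart at all of these, and KOA libraries 1 and 2 were the highest. Hk2, hexokinase 2 (1.08), and Pkm, pyruvate kinase (0.90), differed in the same direction. Vegfa, the vascular growth factor, measured 328, 325, 270.3 and 257 TPM in KOA, 141, 135, 143 and 151 in KOB and 278 to 339 in WT (1.04 ± 0.09, adjusted p 4.96e-05).

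Ddit4, an mTOR inhibitor induced by hypoxia, measured 625, 655, 733 and 726 TPM in KOA and 211, 237, 231 and 250.2 in KOB (1.55 ± 0.08, adjusted p 4.03e-06). The prolyl hydroxylases of collagen, P4ha1 (1.29 ± 0.08, adjusted p 6.21e-06) and P4ha2 (1.12 ± 0.07, adjusted p 5.78e-06), the lipase inhibitor Angptl4 (2.08) and the HIF-induced coregulator Cited2 (2.33) were higher in KOA with no overlap. Car9, carbonic anhydrase IX and a widely used hypoxia marker, went the other way, at 265, 320.4, 100.4 and 104 TPM in KOA, 511, 577, 520.2 and 438 in KOB and 210.3 to 258 in WT (−1.56 ± 0.36, adjusted p 0.00693). Its lowest values were in KOA libraries 3 and 4. The second gene higher in KOB was Nrn1, neuritin (−0.37 ± 0.09, adjusted p 0.0106). Of 9 tested genes of the hypoxia regulator list, which also holds the HIF target Hilpda, 3 were called higher in KOA and 1 higher in KOB, with a median of 0.07. Hif1a, the oxygen-regulated subunit, differed by 0.78 ± 0.14 (adjusted p 0.00222), Egln1, the prolyl hydroxylase that marks it for decay, by 1.14 ± 0.10 (adjusted p 4.95e-05), and Hilpda, a lipid droplet protein that HIF induces, by 1.91 ± 0.20 (adjusted p 0.000113). Hif1an, an asparagine hydroxylase that blocks HIF, was higher in KOB (−0.43 ± 0.10, adjusted p 0.00628).

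Promoters of hypoxia-inducible genes that were higher in KOA are shown with the HIF core ACGTG or its reverse CACGT in capitals. These letters also lie within the E-box CACGTG. The sequences are the 4 called members with the smallest p among those with a match, from RefSeq (GRCm38.p6) over the same window as above, 5′ to 3′ on the gene's strand. They lie at chr10:59951721-59952020 on the minus strand and chrX:106186850-106187149, chr11:54100674-54100973 and chr10:59323046-59323345 on the plus strand. The P4ha1 window was set on a start that lies inside the gene, which begins at 59323197.
Ddit4: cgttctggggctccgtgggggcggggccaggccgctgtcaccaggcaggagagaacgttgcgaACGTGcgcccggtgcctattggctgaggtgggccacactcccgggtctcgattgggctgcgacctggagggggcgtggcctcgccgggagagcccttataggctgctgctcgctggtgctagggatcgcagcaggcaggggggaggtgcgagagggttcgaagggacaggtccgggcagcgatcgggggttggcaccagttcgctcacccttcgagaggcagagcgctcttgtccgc
Pgk1: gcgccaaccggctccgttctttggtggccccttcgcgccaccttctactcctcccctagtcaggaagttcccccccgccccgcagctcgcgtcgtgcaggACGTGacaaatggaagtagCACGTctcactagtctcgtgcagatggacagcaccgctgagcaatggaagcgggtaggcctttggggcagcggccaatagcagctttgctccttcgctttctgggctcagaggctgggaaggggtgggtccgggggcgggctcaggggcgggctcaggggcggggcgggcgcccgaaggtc
P4ha2: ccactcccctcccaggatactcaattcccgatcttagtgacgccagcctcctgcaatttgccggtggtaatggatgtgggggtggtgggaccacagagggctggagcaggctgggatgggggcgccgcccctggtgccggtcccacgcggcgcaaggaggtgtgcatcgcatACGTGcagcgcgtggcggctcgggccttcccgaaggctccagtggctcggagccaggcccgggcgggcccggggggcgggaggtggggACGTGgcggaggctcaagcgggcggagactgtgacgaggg
P4ha1: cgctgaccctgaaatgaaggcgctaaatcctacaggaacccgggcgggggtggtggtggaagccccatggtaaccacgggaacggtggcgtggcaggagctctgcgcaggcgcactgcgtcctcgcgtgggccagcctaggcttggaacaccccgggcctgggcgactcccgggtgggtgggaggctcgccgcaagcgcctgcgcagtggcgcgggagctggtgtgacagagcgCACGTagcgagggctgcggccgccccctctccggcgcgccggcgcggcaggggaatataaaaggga
Pgk1 held 2 matches, which began 150 and 131 bases before the start, P4ha2 held 2, and Ddit4 and P4ha1 held 1 each. Of the promoters available for the 3 hypoxia and glycolysis lists, a match was present in 18 of 35 members called higher in KOA (51.4%) and in 6 of 12 members that were not called, against 2577 of 10086 tested genes (25.6%).

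Secreted proteases and cytokines differed mostly in the same direction as the mesenchymal genes. Of 20 tested metalloproteinases, plasminogen activators and inhibitors, 16 were called higher in KOA and 1 higher in KOB, with a median of 1.12. Mmp10 and Mmp3, the stromelysins, measured 9.82, 10.5, 48.8 and 44.9 and 14.9, 15.9, 59.6 and 59.8 TPM in KOA. They measured 0.47, 0.362, 0.395 and 0.191 and 1.85, 0.693, 1.32 and 1.32 TPM in KOB (4.09 ± 0.50, adjusted p 0.00023, and 3.80 ± 0.46, adjusted p 0.00023). Timp1, a metalloproteinase inhibitor, differed by 2.1 ± 0.13 (adjusted p 7.12e-06).

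Of 27 tested cytokines and chemokines, 13 were called higher in KOA and 2 higher in KOB, with a median of 0.86. Il11, an IL-6 family cytokine that TGF-beta induces, measured 13.3, 12.9, 64.5 and 66.5 TPM in KOA, 1.33, 0.633, 0.995 and 0.762 in KOB and 4.45 to 5.05 in WT (4.0 ± 0.53, adjusted p 0.000366). Ptges, the prostaglandin E synthase, measured 74, 65.4, 77.7 and 79.8 TPM in KOA and 18.8, 15.6, 15.7 and 18.2 in KOB (2.06 ± 0.10, adjusted p 3.23e-06), and Il33, an alarmin, measured 65.4, 67.5, 68.6 and 70.7 and 34.8, 32.1, 32.3 and 26.2 (1.10 ± 0.09, adjusted p 3.41e-05). These genes did not overlap between the lines. The granulocyte-macrophage growth factor Csf2 measured 15.6, 3.58, 44.5 and 45.5 TPM in KOA and 4.55, 4.48, 3.27 and 4.47 in KOB, so KOA library 2 lay within KOB (1.96 ± 0.64, adjusted p 0.0333). That call was lost without any 1 of KOA libraries 3 and 4 and the 4 KOB libraries (adjusted p 0.0634 to 0.0844). Csf3 was at 0.221 to 2.58 TPM in KOA and 0.128 to 0.351 in KOB (1.02 ± 0.30, adjusted p 0.0234), lost without any 1 of KOA libraries 3 and 4 and KOB libraries 2, 3 and 4 (adjusted p 0.0543 to 0.0633). The number of cytokines higher in KOA was 8 without KOA library 3, KOA library 4, both of them or KOB library 4, and 20 without KOA libraries 1 and 2.

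Some markers of macrophages and blood vessels were also higher in KOA. The 26 macrophage and monocyte markers, of which none was at 0, added up to 532.2, 1095, 2000 and 2347 TPM in KOA, 312.1, 938.5, 591.6 and 348.7 in KOB and 521.6 to 3183 in WT. The lines overlapped in this sum, and 13 of the 26 were called higher in KOA with a median of 1.33. All KOA libraries lay above all KOB libraries at 4 of the 26, against 2671 of all 13245 genes tested. The number called was 2 without KOA libraries 3 and 4, 24 without KOA libraries 1 and 2, 23 without KOA library 1, 20 without KOB library 2 and 6 to 8 without KOA library 3 or 4 or KOB library 1, 3 or 4. Arg1, an arginase of macrophages that tumour cells may also express, measured 25.3, 23, 30.9 and 32.1 TPM in KOA and 6.03, 9.73, 5.08 and 5.61 in KOB (1.95 ± 0.19, adjusted p 7.09e-05). Mrc1, the mannose receptor, measured 17.4, 16.1, 40.3 and 41.6 TPM in KOA and 3.81, 17.6, 7.71 and 7.35 in KOB (1.60, adjusted p 0.0149, 0.122 without KOA libraries 3 and 4), and Ptprc, CD45, was at 0.861 to 2.9 TPM in KOA and 0.652 to 1.52 in KOB (0.40, adjusted p 0.228, 0.0106 without KOA libraries 1 and 2). Of 8 tested endothelial markers, 6 were called higher in KOA, with a median of 0.98. Cdh5 and Cldn5 stayed under 1 TPM in every KOB library, so they passed the filter through KOA alone. The 14 listed genes added up to 91.9 to 187.0 TPM in KOA and 56.9 to 59.4 in KOB, of which Flt1 alone reached up to 142 and 42.3. Kdr, Tek, Emcn, Robo4 and Vwf were under 1 TPM in all 8 libraries. Pecam1 stood at 1.46 to 2.41 TPM in KOA and 0.391 to 1.09 in KOB (0.83, adjusted p 0.00448), and Cdh5, VE-cadherin, at 3.65, 2.76, 14.5 and 15.1 in KOA and 0.45 to 0.957 in KOB (2.29, adjusted p 0.00353). Of the dendritic cell markers 3 of 6 tested were higher in KOA, and none of 5 granulocyte, 3 lymphocyte and 4 erythroid markers was called. What these cells contributed to the differences in cytokines and proteases was not tested.

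Sterol synthesis showed a modest difference. Of 23 tested genes, 12 were called higher in KOA and none higher in KOB, with a median of 0.35. The list score was highest in WT, at 5.91 to 6.02, against 5.31 to 5.64 in KOA and 4.91 to 5.18 in KOB. Sqle, squalene epoxidase, differed by 0.81 ± 0.12 (adjusted p 0.000583), at 88, 67.1, 96.1 and 92.5 TPM in KOA and 43.9, 49.6, 52.6 and 46.2 in KOB, with no overlap.

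Among proliferation genes, the S phase list leaned toward KOA, while the G2 and M phase list was close between the lines. Of 26 S phase genes 9 were called higher in KOA and none higher in KOB (median 0.32), and of 26 G2 and M phase genes 3 were higher in KOA and none higher in KOB (median 0.21). E2f1, a factor of S phase entry, measured 25.1, 17.1, 32.1 and 34.5 TPM in KOA and 9.39, 11.8, 9.78 and 9.37 in KOB (1.30 ± 0.20, adjusted p 0.000757). Mki67, the Ki-67 antigen, was at 26.3 to 48.2 TPM in KOA and 33 to 43.1 in KOB (0.09 ± 0.18, adjusted p 0.712), was called without KOA library 2 (0.28, adjusted p 0.0448), and its sign turned without KOA library 3. Cdkn1a, the cell cycle inhibitor p21, was higher in KOA at 52.6, 48.6, 42 and 41.8 TPM against 14.5, 15.9, 15.5 and 22.4 (1.40 ± 0.14, adjusted p 8.71e-05).

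Many interferon and antigen presentation genes were higher in KOB, and both knockout lines scored above WT. The interferon score ran from 4.04 to 4.43 in KOA, 4.45 to 4.91 in KOB and 2.34 to 2.68 in WT. The MHC class I and peptide loading score ran from 7.32 to 7.71, 7.71 to 7.95 and 5.03 to 5.43. The summed TPM of that list overlapped between the knockout lines, at 8298 to 10140 in KOA and 9456 to 11090 in KOB. Of 39 tested interferon response genes 19 were called higher in KOB and 2 higher in KOA (median −0.53), of 18 MHC class I and peptide loading genes 10 and none (median −0.42), and of 7 MHC class II genes all 7 (median −1.22), or 3 of the 7 when all 21 libraries were fitted. Oas2, an antiviral oligoadenylate synthetase, measured 6.37, 4.53, 3.5 and 3.17 TPM in KOA and 15.6, 13, 12.6 and 14.8 in KOB (−1.51 ± 0.18, adjusted p 0.0002). Ddx58, the RNA sensor RIG-I (−1.12), and the signalling factors Stat2 (−0.79) and Irf9 (−0.73) differed in the same direction. The 2 genes higher in KOA were Irf8 (0.85 ± 0.21, adjusted p 0.00949), a factor also used by macrophages, and Bst2 (0.29 ± 0.10, adjusted p 0.0403), an antiviral membrane protein. The Bst2 call was lost without any 1 of KOA libraries 1 and 4 and KOB libraries 2, 3 and 4 (adjusted p 0.0761 to 0.109).

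Ciita, the transactivator of MHC class II genes, measured 8.36, 5.34, 3.4 and 4.15 TPM in KOA, 16, 12.8, 12.8 and 11.2 in KOB and 0.164 to 0.526 in WT (−1.22 ± 0.22, adjusted p 0.002). Cd74, the invariant chain, measured 1001, 894, 407 and 456 TPM in KOA and 1712, 1581, 1582 and 1226 in KOB (−1.24 ± 0.28, adjusted p 0.00625), and H2-Aa, a class II chain, measured 189.5, 148, 70.9 and 77 and 345, 291, 306 and 227 (−1.37 ± 0.30, adjusted p 0.00523). KOA libraries 3 and 4, which held the most macrophage transcripts of the line, held the least of these. The part of macrophages in these levels was not tested. In WT, Cd74 and H2-Aa were lower than in either knockout line, at 25.1 to 44.6 and 6.62 to 9.33 TPM. Psme1, a proteasome activator of peptide loading, differed by −0.80 ± 0.11 (adjusted p 0.000428). H2 genes have near copies, so reads may be shared among them.

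Of the Eph family itself, 15 receptors and ephrins were tested, with 3 higher in KOA, 3 higher in KOB and a median of 0.11. Efnb1, ephrin B1, measured 73.6, 68.2, 85.4 and 88.5 TPM in KOA and 38.1, 41.5, 41.7 and 34.1 in KOB (1.0 ± 0.11, adjusted p 0.000114). Efna5, an ephrin that can bind EPHA2, was higher in KOB (−0.81 ± 0.11, adjusted p 0.000369), as was the receptor Epha7 (−0.70 ± 0.12, adjusted p 0.00111). These genes did not overlap between the lines.

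Many of the largest differences in favour of KOA were genes of none of these lists. Ifitm1, an interferon-induced membrane protein also found in stem cells, measured 164, 145, 320.3 and 356 TPM in KOA, 6.94, 4.93, 3.02 and 5.28 in KOB and 21.2, 37, 46.5 and 40.1 in WT (5.28 ± 0.32, adjusted p 6.65e-06). Siglec15, a sialic acid receptor, measured 89.96, 59.6, 121 and 128 TPM in KOA and 3.15, 2.5, 1.15 and 3.94 in KOB (4.78 ± 0.30, adjusted p 7.76e-06), with 133 to 164 in WT. Igfbp3, an IGF-binding protein, measured 376, 427, 657 and 684 and 32.3, 21.8, 27.1 and 41 TPM (4.08 ± 0.23, adjusted p 5.61e-06). None overlapped between the lines. A pair of genes of neuroendocrine cells were among them: Insm1, a transcription factor, measured 15.9, 17.4, 46.4 and 53 TPM in KOA and 0.25, 0.446, 0.231 and 0.307 in KOB (4.51 ± 0.37, adjusted p 2.82e-05), and Ptprn, a protein of secretory granules, was at 112 to 222 and 8.73 to 13.9 (3.86 ± 0.23, adjusted p 6.09e-06). WT carried both, at 9.56 to 13.3 and 219 to 270.4 TPM.

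Wnt7b, a Wnt ligand, measured 62.8, 35.7, 130.3 and 132 TPM in KOA and 4.24, 4.73, 5.24 and 3.47 in KOB (3.89 ± 0.37, adjusted p 7.21e-05), and Adgra2, a receptor that helps Wnt7 ligands signal in vessels, measured 34.6, 25.5, 78.1 and 78.9 and 1.3, 1.13, 1.06 and 1.03 (4.54 ± 0.34, adjusted p 1.62e-05). Stc1, stanniocalcin 1, which is on the hypoxia list, measured 25.5, 26.2, 67.1 and 61.4 TPM in KOA and 1.62, 2.01, 1.5 and 1.67 in KOB (3.96 ± 0.31, adjusted p 2.3e-05). The WT mean lay between the lines at each of them, at 10.8 to 13.6 TPM for Wnt7b, 21.5 to 26.6 for Adgra2 and 5.21 to 7.16 for Stc1.

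Some homeobox genes were far higher in KOA than in either KOB or WT, and Rhox5 was also higher in KOB than in WT. Rhox5 (chromosome X, 37754608 to 37808878, GRCm38), a homeobox gene of the reproductive X-linked cluster that DNA methylation keeps silent in most tissues, measured 412, 238, 503 and 525 TPM in KOA, 11.3, 16.5, 25 and 12.6 in KOB and 3.0, 3.67, 4.88 and 2.84 in WT (4.60 ± 0.29, adjusted p 8.29e-06). Genes listed under 0.1 TPM in all 4 libraries of a line and at 2 TPM or more in all 4 of the other numbered 2, both off in KOB, and both belong to the same cluster. Rhox2h measured 12, 5.11, 12.7 and 12.4 TPM in KOA, was listed at 0 in the 4 KOB libraries and stood at 0.164 to 0.596 in WT, and Rhox2d measured 2.01, 2.41, 8.36 and 5.42 TPM in KOA and was listed at 0 in KOB and WT. Rhox2 genes are near copies, so the reads of the family may be shared. Not all of the cluster was higher in KOA. Another tested gene of it overlapped between the lines, at 1.13 to 3.71 TPM in KOA, 1.28 to 3.09 in KOB and 1.05 to 2.73 in WT. Maged2, a MAGE family gene on the same chromosome, measured 27.9, 25.5, 37.7 and 36.2 TPM in KOA and 0.625, 0.744, 0.532 and 0.53 in KOB, but its WT libraries, at 22.3 to 24.6 TPM, lay beside KOA (4.34 ± 0.14, adjusted p 1.34e-06).

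The Hoxa cluster showed a like pattern at lower TPM. Only 7 of 39 listed Hox genes were tested, all of them Hoxa genes, and 6 were called higher in KOA, with a median of 1.21. These 6 stayed under 1 TPM in every KOB library, so they passed the filter through KOA alone. The filter thus shaped the count and the median, which are no measure of Hox genes at large. Hoxa10 measured 3.28, 3.06, 2.6 and 2.94 TPM in KOA, 0, 0.0401, 0.145 and 0.175 in KOB and 0 to 0.0815 in WT (1.86 ± 0.13, adjusted p 1.47e-05). Hoxa9 measured 1.85, 1.17, 1.35 and 1.16 TPM in KOA and at most 0.1 TPM in any KOB or WT library (1.21 ± 0.15, adjusted p 0.000252). Hoxa3 (1.36 ± 0.14, adjusted p 9.68e-05) and Hoxa13 (1.5 ± 0.24, adjusted p 0.00109), which lie toward opposite ends of the cluster (chromosome 6, 52169059 to 52260880 from the start of Hoxa3 to the end of Hoxa13), differed as well. Hox genes pattern the body axis, and neighbouring transcripts of the cluster overlap, so reads may be shared among them and with antisense transcripts.

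Differences between the lines were uneven across chromosomes, and the X chromosome stood furthest from the rest. Of 377 tested X-linked genes, 224 were called higher in KOA (59.4%) and 19 higher in KOB (5.04%), with a median difference of 0.50 and quartiles of 0.23 and 0.80. Over the 12840 tested genes with a position on another chromosome, the shares were 19.9% and 22.6% and the median −0.02. Taken against the mean of KOB, the median X-linked gene stood at 0.49, 0.28, 0.72 and 0.58 in the KOA libraries, −0.10 to 0.05 in the KOB libraries and 0.29 to 0.34 in WT. All 4 KOA libraries were above all 4 KOB libraries, and WT lay above KOB and beside the lowest KOA library. In 8 stretches of equal length along the X, holding 10 to 72 tested genes, the median ran from 0.37 to 0.60.

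Xist, the RNA that coats an inactive X chromosome, measured 93.9, 58.3, 193 and 151 TPM in KOA, 114, 126, 107 and 125 in KOB and 89.8 to 111 in WT (−0.06 ± 0.31, adjusted p 0.895), so KOA spanned the KOB range on both sides. Strand was not given for the quantification, so reads of its antisense partner Tsix may be included. Its sign turned without KOA library 1 (0.03) or 2 (0.25). Without KOA libraries 1 and 2 together it was 0.54 (adjusted p 0.00555), and without KOA libraries 3 and 4 it was −0.66 (adjusted p 0.0235). The 36 mesenchymal markers included 2 X-linked genes, Msn, which encodes moesin (1.52 ± 0.12, adjusted p 1.98e-05), and Bgn, biglycan, and Pgk1, Timp1 and Efnb1 are X-linked too.

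Smaller shifts were seen elsewhere. On chromosome 14, 208 of 447 tested genes were called higher in KOB (46.5%) and 56 higher in KOA (12.5%), with a median of −0.29. On chromosome 4 the counts were 314 and 122 of 832, with a median of −0.33 over the 416 genes nearer the start of the chromosome and −0.07 over the other 416, and WT (−0.41 to −0.28 against the KOB mean) lay below every KOA library (−0.25 to −0.14). Chromosome 7 went the other way, with 334 of 1000 genes higher in KOA (33.4%) and 104 higher in KOB (10.4%), and a median of 0.16. By library, the chromosome medians of KOA lay below every KOB library on chromosome 14, at −0.36 to −0.22 against −0.12 to 0.08, and above every KOB library on chromosome 7, at 0.13 to 0.22 against −0.15 to 0.07. The number of chromosome copies was not measured.

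**Figure D4:**
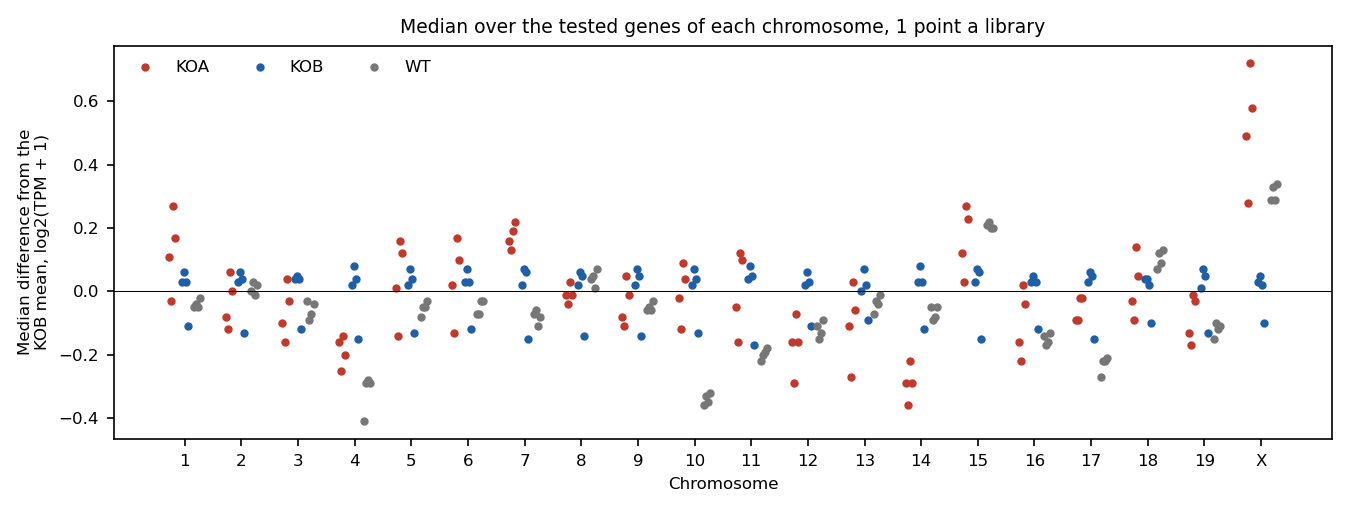
Median over the tested genes of each chromosome of the difference from the KOB mean, in log2(TPM + 1), with 1 point for each library of KOA, KOB and WT. On the X chromosome KOA (0.28 to 0.72) lies above KOB (−0.10 to 0.05), with WT at 0.29 to 0.34, and on chromosome 14 KOA (−0.36 to −0.22) lies below KOB and WT.

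At most genes with a called difference of at least 1, the WT mean was nearer to KOA, though often not between the lines. Of the 904 genes higher in KOA by at least 1, the WT mean lay between the lines at 569, above both at 289 and below both at 46. Of the 581 genes higher in KOB by at least 1, it lay between the lines at 285, below both at 288 and above both at 8. The WT mean was nearer to KOA at 705 of the 904 (78.0%) and at 526 of the 581 (90.5%). KOA and KOB share these WT libraries, so the positions are given as a description only.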

How the data were processed

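RNA of sorted tumour cells was sequenced, per the labels. The authors deposited a TPM value per gene for 24623 symbols and 21 libraries, and Salmon and mm10 are named in the submitters' processing notes, with versions, annotation and strand setting not given in the sources used here. TPM keeps no depth, so no counting error can be given. KOA and KOB were taken by column name, and the columns' letters and numbers were matched to the group of knockout libraries only.

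The 13245 genes that reached 1 TPM in 3 or more of the 8 libraries were tested as log2(TPM + 1) with limma 3.58.1 in R 4.3.3 (lmFit, eBayes with trend), two-sided, with Benjamini-Hochberg adjustment over all of them. The residual degrees of freedom were 6 and the prior ones 3.43. Epha2 also had an exact permutation test. The fit was tested on simulated data. Python 3.11.15 with pandas 2.3.3 and scipy 1.17.1 made the tables, and matplotlib 3.10.9 the plots.

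Gene lists (40 lists, 906 entries) are described by counts and medians, with list scores as the mean log2(TPM + 1) of tested members. The comparison, the lists and the genes were chosen with earlier results of these data known. Genes named were the 20 largest non-overlapping differences in each direction with a line mean of at least 5 TPM, up to 6 members a list with the smallest p, genes at 0 in a line, and a set of 26 chosen by name whatever their values; some genes these rules pick are not reported here. Other list members are named where a count calls for them and were then chosen after their values were seen. RefSeq (GRCm38.p6) gave promoters for 10086 tested genes and positions for 24531 symbols. Alternatives changed the pseudocount, the filter, the scaling, the libraries fitted, the weights and the replicate block, and left out libraries.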

Additional observations from a re-analysis of the deposited data

Results flagged for a closer look

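Among the genes named, 13 of 272 sets of 4 libraries held 1 library far from the other 3, and chance gives about 1 in 20. In KOB library 1, Prrx2 was high at 31.5 TPM (others 18.8 to 20.4), as were Csf3 at 0.351 (0.128 to 0.159), Timp1 at 39.5 (34.4 to 35.1) and Ptprn at 13.9 (8.73 to 9.38), while Alpi was low at 39.1 (82.5 to 94.9). In the other KOB libraries, Hif1a was low in library 2 at 28.1 TPM (31.5 to 32.0), Csf2 was low in library 3 at 3.27 (4.47 to 4.55), and Fn1 was low in library 4 at 346 (418 to 426). In KOA library 2, Muc5ac was low at 0.902 TPM (4.98 to 5.86), as were Rhox2h at 5.11 (12 to 12.7) and Mki67 at 26.3 (43.6 to 48.2). In KOA library 1, Stat2 was high at 15.2 TPM (12.5 to 12.8) and Epha7 at 6.64 (5.16 to 5.37). KOB libraries stayed on their side of KOA at Prrx2, Fn1, Alpi, Timp1 and Ptprn with the distant library included.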

How the results depend on the processing

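Of 136 genes named in the text, 127 were called, and 116 of these were called under every alternative that tested them; Snai2, Pdx1, Csf2, Csf3, Mrc1, Bst2, Irf8, Lyz1, Nrn1, Smad6 and Tgfb3 lost the call under at least 1. With 1 library left out, 4533 to 6477 genes were called (2181 to 3506 higher in KOA, 2249 to 3426 higher in KOB) and 1299 to 1678 with a difference of at least 1, a count that was 987 with a mean of at least 5 TPM required. Called members were then 29 to 32 for mesenchymal, 18 to 19 for hypoxia, 17 to 20 for glycolysis, 15 to 20 for gastric and 14 to 25 for epithelial genes. Epha2 was 0.16 to 0.32, and 0.41 without KOA libraries 1 and 2. The sign turned for Epcam (0.17), Ptprc (−0.0036) and Mki67 (−0.11) without KOA libraries 3 and 4, for Xist without KOA libraries 1 and 2 (0.54), and with 1 library left out for Xist (−0.32 to 0.25) and Mki67 (−0.0011 to 0.28); the cause was not tested. Requiring a mean of 5 TPM left fewer genes to test and gave 5 EMT factors, 10 fibroblast, 1 endothelial and 0 Hox genes higher in KOA. Fitting all 21 libraries gave 2 macrophage genes higher in KOA and 3 MHC class II genes higher in KOB, testing without a filter gave 6 macrophage genes, and leaving out KOA library 3 or KOB library 1 gave 5 integrin and laminin genes.

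With the library number as a replicate block, 4754 genes were called (2354 higher in KOA, 2400 higher in KOB), 1510 with a difference of at least 1, and Epha2 was 0.22. Deviations of same-numbered libraries from their line means were weakly correlated or not at all (r 0.184, −0.0219, −0.0914 and −0.0226). What the numbers stand for is not given, so these values cannot exclude a pairing. Among named genes the block lost Pdx1 and gained Dcn. Depth cannot be judged from TPM.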

Other observations

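Counts for the other gene lists are as follows. The squamous and basal list had 3 of 16 tested genes higher in KOA and 4 higher in KOB, with a median of −0.15. BMP signalling and ID genes had 4 and 2 of 13 (median 0.20), YAP and TEAD targets 5 and 3 of 18 (0.09), and immediate-early genes 6 and 0 of 20 (0.22). Fatty acid synthesis had 6 and 1 of 14 (0.24), genes of ATF4 and the unfolded protein response 11 and 3 of 23 (0.21), and the Trp53 pathway 5 and 2 of 14 (0.19). Integrins and laminins had 8 and 3 of 24 (0.20). Imprinted genes had 8 and 1 of 15 (0.58). Of skin, fat and muscle markers 1 of 3 tested was higher in KOA, and of pancreatic acinar and islet markers 1 of 2 tested was higher in each line, with 10 of 16 at 0 in all 8 libraries.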
